A study of Mus musculus with 4 samples.

Results

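The CDK inhibitor genes of the mouse are Cdkn1a, Cdkn1b, Cdkn1c, Cdkn2a, Cdkn2b, Cdkn2c and Cdkn2d, and all 7 were looked up by name among the 37310 annotated genes (22380 of them protein-coding) of GENCODE M1, which is on the mm9 assembly. Peaks of 2 ChIP-Seq lists were set beside every annotated transcription start site (TSS) of these genes. In the Bio-Myc ChIP, chromatin of a stable clone of E14 mouse ESCs that expresses Myc with an N-terminal Biotag from the ubiquitous EF1α promoter was purified on streptavidin beads. Per the methods, the clone was made by transfection of BirA-ES cells. Max itself was precipitated with an antibody from wild-type parental E14 cells, so the lists come from different cells, and Bio-Myc from 1 clone. The controls were a mock streptavidin ChIP and an IgG ChIP, which entered only through the authors' peak calling. The labels describe the mock cells as parental wild type and the methods as BirA-ES cells without a tagged protein. Each ChIP is 1 library, so there is no replicate error for any value given here and no test between the libraries. The Bio-Myc list holds 3962 peaks and the Max list 11570, each with a score that is the log10 of the MACS p-value with its sign turned, times 10, and the authors kept peaks at 1e-08 or lower. The lists hold no read numbers, so the depth is unknown. A gene without a peak is one where no region passed that limit at this depth, not one shown to be free of the protein.

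The CDK inhibitors hold back the cell cycle by binding cyclin-dependent kinases. The Cip/Kip proteins, encoded by Cdkn1a (p21), Cdkn1b (p27) and Cdkn1c (p57), bind cyclin-kinase complexes, above all those that act at the entry into S phase. The INK4 proteins, encoded by Cdkn2a (p16Ink4a), Cdkn2b (p15), Cdkn2c (p18) and Cdkn2d (p19Ink4d), bind the cyclin D-dependent kinases. Cdkn2a encodes a second, unrelated protein, Arf, from another promoter and another reading frame, which acts on Mdm2 and so on p53. Myc is known as a repressor of several of these genes. At Cdkn1a and Cdkn2b this is described as binding of Myc and Max to the zinc finger protein Miz-1 at the core promoter, in place of binding to an E-Box (CACGTG).

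Bio-Myc peaks were missing within 1 kb of every TSS of the 7 genes, and 2 had a Max peak there, Cdkn1a and the Arf promoter of Cdkn2a. In this window the shares over the whole set of protein-coding genes were 14.6% for Bio-Myc, 34.8% for Max and 12.7% for both. Within 5 kb of a TSS, none had a Bio-Myc peak and 3 had a Max peak, with Cdkn1c as the third. The shares of all protein-coding genes in that window were 16.6% for Bio-Myc, 38.6% for Max and 14.5% for both. The class with Max and without Bio-Myc thus held 2 of 7 genes within 1 kb and 3 of 7 within 5 kb, beside 22.1% and 24.2% of all protein-coding genes. With neither peak were 5 of 7 genes within 1 kb (63.2% of all) and 4 of 7 within 5 kb (59.2% of all). With 7 genes, of which Cdkn2a and Cdkn2b are neighbours, these counts do not set the family apart from the genome, and the difference was not tested. The map of peaks gives their positions within 10 kb of 1 TSS for each of 8 promoters.

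**Figure D1:**
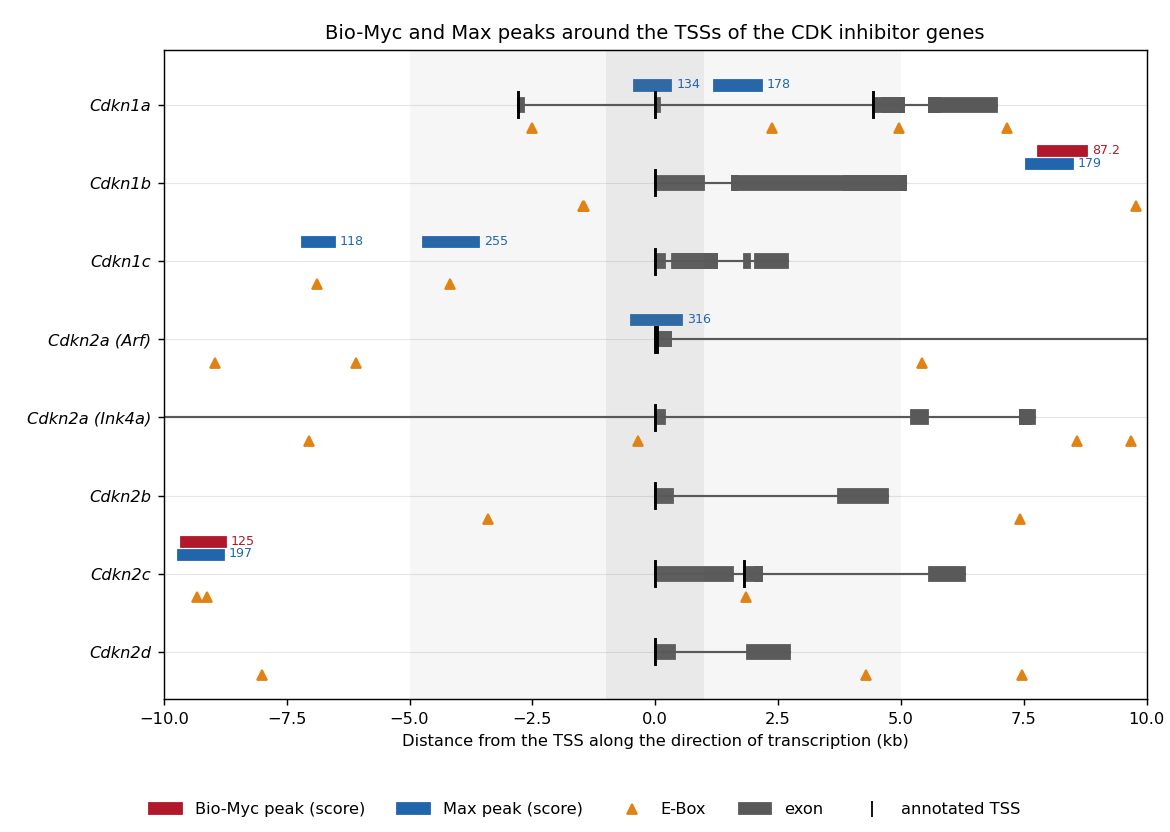
Bio-Myc peaks (red) and Max peaks (blue, with their scores) within 10 kb of the TSS of 8 CDK inhibitor promoters, with the distance from that TSS on the x axis in kb along the direction of transcription; Cdkn1a is centred on 29230717. Grey boxes are exons, black ticks annotated TSSs, orange triangles E-Boxes, and the shaded bands the windows of 1 kb and 5 kb; no red bar lies inside the shaded bands, and blue bars cover the TSS only at Cdkn1a and at the Arf promoter of Cdkn2a.

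Cdkn1a, the p53-induced inhibitor p21 (ENSMUSG00000023067.7, chromosome 17, plus strand, 29227924 to 29237667), has 3 annotated TSSs, at 29227924, 29230717 and 29235152. A Max peak from 29230279 to 29231044 covered the middle one and the UTR exon that starts there, with its centre 56 bp upstream of the TSS. Its score was 134, rank 7072 of 11570, so 38.9% of the Max peaks scored lower. A second Max peak, from 29231904 to 29232884, began 1187 bp downstream of the same TSS in an intron, 859 bp from the end of the first, and had the higher score of 178. Neither overlapped a Bio-Myc peak. The 250 bases upstream of the TSS at 29230717 lie inside the first Max peak and are shown because this is the core promoter at which p21 is described as repressed by Myc. The sequence is mm9 chr17:29230467-29230716, plus strand, with capitals marking any CANNTG, the general form of an E-Box.

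Cdkn1a promoter: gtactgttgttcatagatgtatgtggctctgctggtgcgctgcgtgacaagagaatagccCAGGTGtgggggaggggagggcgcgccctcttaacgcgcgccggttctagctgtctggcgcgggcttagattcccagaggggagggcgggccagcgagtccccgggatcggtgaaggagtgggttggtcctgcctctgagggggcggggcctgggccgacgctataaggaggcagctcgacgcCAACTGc

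These 250 bases held 2 CANNTG and no CACGTG, and neither Max peak at Cdkn1a held a CACGTG. In the 250 bases upstream of the outermost TSS of the protein-coding genes, searched on both strands, 63.5% had a CANNTG and 6.51% a CACGTG. The intronic Max peak held 1 CACGCG, counted on both strands as CACGCG or CGCGTG, a variant of the E-Box that differs from it by 1 base and occurs in 40.1% of all Max peaks. Cdkn1a does have 4 CACGTG within 5 kb of its TSSs, and none of them lay under a peak of either list. One of these is 282 bp downstream of the TSS at 29227924 in an intron, and another lies 522 bp downstream of the TSS at 29235152 in the coding sequence. The nearest Bio-Myc peak (29215723 to 29216483) had a score of 236 and ended 11.4 kb upstream of the outermost TSS, 14.2 kb from the one under the Max peak. It covered a TSS of the annotated gene Gm16197 and overlapped a Max peak by 726 bp. Another Max peak (29218195 to 29218740, score 107) lay 9184 bp upstream of the outermost Cdkn1a TSS and 2289 bp from the nearest TSS, that of Gm16197, and lies outside the range of the map.

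Cdkn1b, which encodes p27 (ENSMUSG00000003031.8, chromosome 6, plus strand, 134870419 to 134875531), had no peak of either list within 5 kb of its single TSS. The nearest peaks of both lists lay together beyond its 3′ end. A Max peak from 134877966 to 134878918 had a score of 179 and began 7.55 kb downstream of the TSS and 2435 bp past the end of the gene. A Bio-Myc peak from 134878212 to 134879208 overlapped it by 707 bp. The Bio-Myc score was 87.2, near the limit, and only 11.1% of the Bio-Myc peaks scored lower. No annotated TSS lay under these peaks, and that of Cdkn1b was the nearest one. They held no CACGTG, while the Max peak held 2 CACGCG and the Bio-Myc peak 1. Upstream of Cdkn1b, 2 adjacent CACGTG stand 1461 bp and 1455 bp before the TSS at the end of a run of CA repeats, outside any peak.

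Cdkn1c encodes p57 and is imprinted, with expression from the maternal copy (ENSMUSG00000037664.6, chromosome 7, minus strand, 150644255 to 150646955). No peak lay within 1 kb of its TSS, and 2 Max peaks lay upstream of it between genes. The nearer one, from 150650546 to 150651679, began 3591 bp upstream and scored 255, so 73.0% of the Max peaks scored lower. The farther one, from 150653473 to 150654152, was 6518 bp upstream, outside the 5-kb window, with a score of 118, and was nearer to a TSS of Slc22a18 (5474 bp) than to that of Cdkn1c. Each held 1 CACGTG close to its centre, 12 bp from it in the nearer peak and 26 bp in the farther one. Among the 4396 Max peaks with a CACGTG, 33.4% had one within 50 bp of the centre, and the median distance was 92.0 bp. The nearer site is the only one of 11 CACGTG within 5 kb of a CDK inhibitor TSS that lay under a Max peak. Both sites are shown in mm9 on the minus strand, the coding strand of Cdkn1c, with the E-Box in capitals, since these are the E-Boxes under the Max peaks on the upstream side of the gene. They lie at chr7:150651110-150651139 and chr7:150653824-150653853.

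Cdkn1c, 4172 bp upstream: aggcggccgccgCACGTGtctgggggcggc

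Cdkn1c, 6886 bp upstream: attaggggacccCACGTGactattggtgca

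Neither of these Max peaks overlapped a Bio-Myc peak. The nearest Bio-Myc peak to Cdkn1c, at 150785600 to 150786446 (score 190), was 139 kb upstream and covered a TSS of Cars, which encodes the cysteinyl-tRNA synthetase. The distance was above the median of 113 kb from a protein-coding gene to its nearest Bio-Myc peak.

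Cdkn2a (ENSMUSG00000044303.5, chromosome 4, minus strand, 88920377 to 88940557) has its promoters 12.5 kb apart. The transcript from the TSS at 88928096 starts with the exon of p16Ink4a, and those from 88940523 and 88940557 start with the exon of Arf. A Max peak from 88940015 to 88941046 covered both Arf TSSs and the UTR and coding sequence of the first exon, with its centre 7 bp from the TSS at 88940523. Its score was 316, rank 2234 of 11570, the highest of the 4 Max peaks within 5 kb of a CDK inhibitor TSS, and 80.7% of the Max peaks scored lower. The p16Ink4a promoter had no peak, and its nearest Max peak was the one at Arf, 11.9 kb upstream. The Max peak over Arf held no CACGTG and 3 CACGCG, one of them 2 bp from the centre of the peak. The p16Ink4a promoter, without a peak, held a CACGTG 356 bp upstream of its TSS. The Arf promoter is shown for the 250 bases upstream of 88940557, all inside the Max peak, in mm9 chr4:88940558-88940807, minus strand. Capitals mark any CANNTG or CACGCG, and these bases held 1 CACGCG and no CANNTG.

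Arf promoter of Cdkn2a: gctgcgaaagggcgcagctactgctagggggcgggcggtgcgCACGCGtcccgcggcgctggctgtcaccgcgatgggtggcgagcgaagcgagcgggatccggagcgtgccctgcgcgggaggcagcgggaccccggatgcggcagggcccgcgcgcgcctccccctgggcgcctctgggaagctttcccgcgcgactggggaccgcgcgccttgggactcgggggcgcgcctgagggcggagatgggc

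A CACGCG occurred in the 250 bases upstream of 9.49% of the protein-coding genes. The same bases of Cdkn1b also held 1, and Cdkn1b had no peak within 5 kb. The site at the centre of the Max peak lies at chr4:88940514-88940543, 8 bp upstream of the TSS at 88940523, and is printed on the minus strand beside the E-Box of the p16Ink4a promoter at chr4:88928435-88928464, to set the sequence under the peak against the canonical E-Box outside it.

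Arf, under the Max peak: ggccgggggcggCGCGTGggtctcgaggtg

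p16Ink4a, no peak: tttctcagaagaCACGTGtgcacttctttg

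Cdkn2b, which encodes p15 (ENSMUSG00000073802.4, chromosome 4, minus strand, 88952198 to 88956941), lies 16.4 kb from Arf, measured from TSS to TSS, and had no peak of its own. Its nearest Max peak was the one over Arf, 15.9 kb downstream of its TSS. The nearest Bio-Myc peak was the same for Cdkn2a and Cdkn2b (88782919 to 88783815, score 113), at 144 kb from the nearest Cdkn2a TSS and 173 kb from that of Cdkn2b. That peak overlapped a Max peak by 775 bp and covered the TSS of Mtap, which encodes the methylthioadenosine phosphorylase of the methionine salvage pathway. Between Mtap and Cdkn2b, the peak at Arf was thus the nearest of either list to all 4 TSSs of this locus. The 250 bases upstream of the Cdkn2b TSS are shown for comparison with Cdkn1a, since both are described as repressed through Miz-1, in mm9 chr4:88956942-88957191, minus strand, with any CANNTG or CACGCG in capitals.

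Cdkn2b promoter: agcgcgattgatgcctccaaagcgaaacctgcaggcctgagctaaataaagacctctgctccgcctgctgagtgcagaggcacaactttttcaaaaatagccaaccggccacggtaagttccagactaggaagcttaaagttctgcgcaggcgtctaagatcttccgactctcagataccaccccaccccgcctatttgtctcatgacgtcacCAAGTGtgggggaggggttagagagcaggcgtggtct

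These bases held 1 CANNTG, no CACGTG and no CACGCG. The single CACGTG within 5 kb of Cdkn2b stood 3404 bp upstream of the TSS.

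Cdkn2c, which encodes p18 (ENSMUSG00000028551.8, chromosome 4, minus strand, 109333481 to 109339794), has TSSs at 109339794 and 109337977 and no peak within 5 kb of either. Peaks of Bio-Myc (109348532 to 109349452) and of Max (109348567 to 109349515) overlapped by 886 bp at 8.74 kb and 8.77 kb upstream, and both covered a TSS of the neighbouring gene Faf1, which encodes a Fas-associated factor. Their scores were 125 and 197, with centres 49 bp apart. Both peaks held the same 2 CACGTG. Cdkn2c has a CACGTG of its own 34 bp downstream of the TSS at 109337977, in a UTR exon, with no peak over it. The E-Boxes under the peaks at Faf1 (chr4:109348904-109348933 and chr4:109349105-109349134) and the one in Cdkn2c (chr4:109337926-109337955) are set beside each other, on the minus strand of mm9.

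Faf1 side, nearer Cdkn2c: gattcggcgcctCACGTGcttagtcatacg

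Faf1 side, farther from Cdkn2c: ctttgcggctgtCACGTGactgccctcctg

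Cdkn2c, no peak: ttgctgaataatCACGTGtgaatcgagggg

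The site in Cdkn2c and those at Faf1 hold the same 6 bases, and peaks of both lists lay over those at Faf1 alone.

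Cdkn2d, which encodes p19Ink4d (ENSMUSG00000066860.6, chromosome 9, minus strand, 21092907 to 21095653), was the member farthest from any Max peak. The nearest such peak (21048469 to 21049411, score 137) was 46.2 kb downstream of the TSS, inside the gene S1pr5. For Bio-Myc the nearest one (21156781 to 21157927, score 123) was 61.1 kb upstream, inside the gene Slc44a2, and held 1 CACGTG. These were different places, and neither peak overlapped one of the other list.

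The nearest Max peak was closer than the median of 22.1 kb over all protein-coding genes for 6 of the 7 genes, and farther for Cdkn2d. For Cdkn1c, Cdkn1b, Cdkn2c and Cdkn2b, 37.4%, 40.9%, 41.8% and 46.8% of the protein-coding genes had a nearer Max peak. The Arf peak was the nearest one for both Cdkn2a and Cdkn2b. For Bio-Myc the genes fell on both sides of the median of 113 kb. Cdkn1b, Cdkn2c and Cdkn1a had a Bio-Myc peak 7.79, 8.74 and 11.4 kb from a TSS, and 18.3%, 18.8% and 20.3% of the protein-coding genes had a nearer one. Cdkn2d followed with 61.1 kb, and Cdkn1c, Cdkn2a and Cdkn2b had none within 100 kb. In the order of the distances, Cdkn1b and Cdkn2c had nearly the same value in both lists because peaks of both lists overlapped there, whereas at the other 5 genes the nearest peaks of the lists were at different places. At the limit of the 5-kb window, the nearest peak inside was that of Max upstream of Cdkn1c at 3591 bp. Max peaks just outside were at 6518 bp (Cdkn1c), 7547 bp (Cdkn1b) and 8773 bp (Cdkn2c). Bio-Myc peaks just outside were at 7793 bp (Cdkn1b) and 8738 bp (Cdkn2c).

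**Figure D2:**
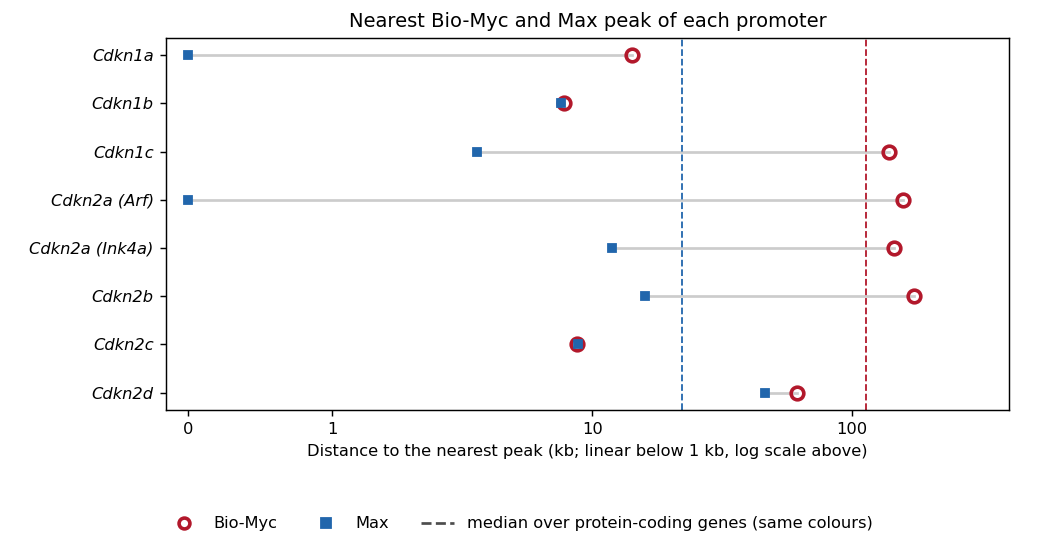
Distance from each CDK inhibitor promoter to the nearest Bio-Myc peak (open red circles) and the nearest Max peak (blue squares), in kb on an axis that is linear below 1 kb and logarithmic above, 1 point per promoter and library; for Cdkn1a the TSS at 29230717 is used. Dashed lines are the medians over protein-coding genes, 22.1 kb for Max and 113 kb for Bio-Myc, and the 2 lists nearly coincide at Cdkn1b and Cdkn2c. The medians take each gene at its TSS closest to a peak, unlike the points. By that measure the Bio-Myc distance of Cdkn1a is 11.4 kb, and 14.2 kb is drawn.

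Max peaks within 5 kb of a CDK inhibitor TSS numbered 4, and 0 of them overlapped a Bio-Myc peak. Of all Max peaks, 26.2% did, and the share rose with the Max score, from 9.94% to 58.2% over 10 equal parts of the list ordered by score. The peak at the Cdkn1a TSS (134) fell in the part with scores from 118 to 136, in which 16.2% overlapped a Bio-Myc peak. For the parts that hold the intronic Cdkn1a peak (178), the Cdkn1c peak (255) and the Arf peak (316), the shares were 23.6%, 35.7% and 48.1%. Set among the 8533 Max peaks without Bio-Myc, the Arf peak scored above 87.8% of them, the Cdkn1c peak above 81.2%, and the Cdkn1a peaks above 46.3% and 65.1%. The scores of the lists are not on one scale, since the score depends on the reads of each library and its control, and so they were compared only within a list.

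**Figure D3:**
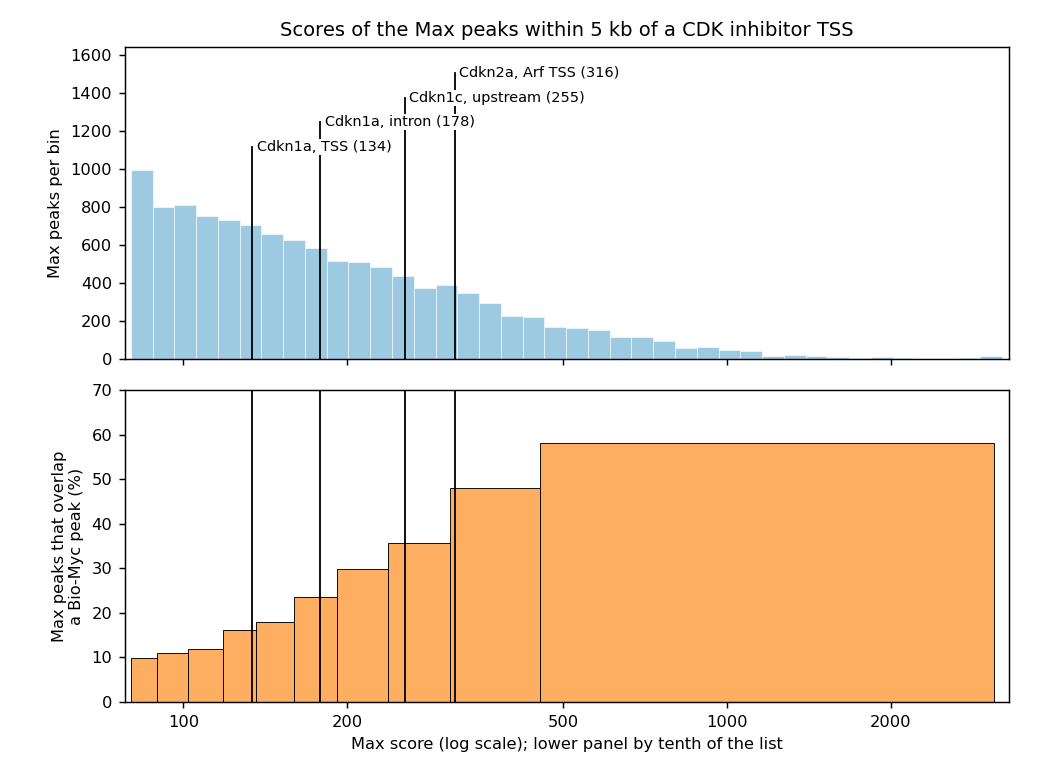
Scores of the 11570 Max peaks (upper panel, number of peaks per bin) and the share of Max peaks that overlap a Bio-Myc peak in 10 equal parts of the Max list (lower panel, in percent), with the Max score on a logarithmic x axis. Black lines mark the 4 Max peaks within 5 kb of a CDK inhibitor TSS, from 134 at Cdkn1a to 316 at Arf; the share with Bio-Myc rises from 9.94% to 58.2% along the list, and none of the 4 has one.

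A CACGTG was found in 1 of the 4 Max peaks, beside 38.0% of all Max peaks, and a CACGCG in 3 of the 4, beside 40.1%. The CACGCG nearest the centre lay 2 bp from it in the Arf peak. It lay 211 bp from the centre in the intronic Cdkn1a peak and 541 bp in the Cdkn1c peak. All 4 held a CANNTG, as did 96.1% of all Max peaks. Within 1 kb of a TSS, a CACGCG lay at 3 of the 7 genes (Cdkn1b, Cdkn2a and Cdkn2d), beside 38.5% of the protein-coding genes. Cdkn1b and Cdkn2d had no peak in that window, and the Cdkn1a TSS under the Max peak had no CACGCG within 1 kb. Around the genes themselves, a CACGTG lay within 1 kb of a TSS at 3 of the 7 genes (Cdkn1a, Cdkn2a and Cdkn2c) and within 5 kb at 7 of 7, beside 39.0% and 75.7% of the protein-coding genes. In the genome the motif went with the peaks, since 66.4% of the protein-coding genes with both peaks within 1 kb had a CACGTG there, 51.0% of those with Max alone and 29.1% of those with neither. These shares count a peak and a motif at any TSS of a gene. By that measure both family members with Max alone within 1 kb, Cdkn1a and Cdkn2a, also had a CACGTG there. By single TSS, the 2 promoters under a Max peak and the E-Boxes were in different places. Shares by single TSS were not computed for all genes. Within 1 kb of the TSSs that Max covered there was no CACGTG, and at the CACGTG within 1 kb of the other Cdkn1a, Cdkn2a and Cdkn2c TSSs there was no peak. A match of these letters describes the sequence and does not show a binding site.

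Most of the TSSs stood above the genome median in CpG, some of them by little. Within 500 bp of the TSS, the ratio of observed to expected CpG was above the median of the protein-coding genes, 0.55, at 9 of the 12 TSSs of the family. The values for protein-coding genes were taken at the outermost TSS of each gene. The 12 are all annotated TSSs of the family, with both Arf TSSs counted. Among the 9 were ratios of 0.62 (Cdkn2c at 109337977) and 0.66 (Cdkn2d). The ratio ran from 0.13 at the outermost Cdkn1a TSS, which had no peak, to 0.98 at the Arf TSS at 88940557. The Arf promoter had 67.0% GC and a CpG ratio above that of 97.3% of the protein-coding genes. Cdkn1b (0.91) and Cdkn1c (0.88) had ratios above 92.0% and 89.7% of the genes and no peak within 1 kb, and Cdkn1a had 0.63 at the TSS under the Max peak. A CpG-rich promoter was therefore found with and without a Max peak in this family.

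**Figure D4:**
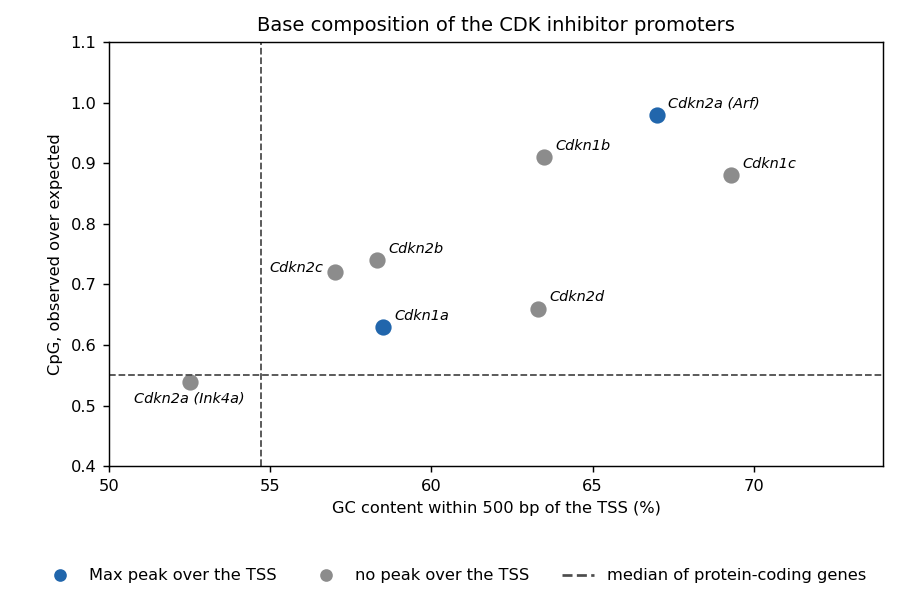
GC content (x axis, percent) and observed over expected CpG (y axis) within 500 bp of the TSS for 8 CDK inhibitor promoters, 1 point each, blue where a Max peak covers the TSS and grey where none does; Cdkn1a is shown at 29230717. Dashed lines are the medians of the protein-coding genes at the outermost TSS of each, 54.7% and 0.55. The blue points stand at 0.98 (Arf) and 0.63 (Cdkn1a), with grey points between them.

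The proteins that work with the CDK inhibitors were looked up in the same way, in 4 lists with 51 genes in all. Within 1 kb of a TSS, 22 of the 51 genes had both peaks, 18 a Max peak alone and 11 neither, beside 12.7%, 22.1% and 63.2% of all protein-coding genes. These lists were chosen by hand, and nothing particular to them is read from the counts. Some of the scores lay near the limit, and the counts of the lists were not repeated at a stricter limit. Of the kinases and cyclins that the inhibitors bind, 6 of 11 had both peaks (Cdk1, Cdk4, Cdk6, Ccna2, Ccne1 and Ccne2), 4 had Max alone, and only Cdk2 had neither. The targets of the INK4 proteins had scores of 520 for Bio-Myc and 1497 for Max at Cdk6, and of 136 and 768 at Cdk4. At Ccne2, a cyclin that activates Cdk2, the scores were 277 and 1580. They were lower at Cdk1 (169 and 201), Ccna2 (184 and 87.9, the latter near the limit) and Ccne1 (119 and 251). Of 9 genes for the breakdown of Cip/Kip proteins, 4 had both peaks. Among them were Cks1b, a subunit needed for the ubiquitination of p27, with scores of 307 and 401, and Dtl, with 550 and 894. Dtl directs the breakdown of p21 on chromatin. The others were Cul1, with 132 and 147, and Ddb1, with 127 and 349. Skp2, the F-box protein that recognises p27, had neither peak within 5 kb, nor had Rbx1 and Fbxw7. Fbxw7 was put on this list by hand, and no value here ties it to the Cip/Kip proteins. Of 9 genes for pocket proteins and E2F factors, 3 had both (Rbl1, E2f3 and E2f4), 5 had Max alone, and Rb1, whose protein is kept unphosphorylated by the INK4 inhibitors, had neither.

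Among 22 genes that control the transcription of CDK inhibitors, 9 had both peaks, 7 Max alone and 6 neither. Trp53, which encodes the activator of Cdkn1a, had scores of 89.0 for Bio-Myc and 364 for Max, and Mdm2, the target of Arf, had 249 and 124. Dnmt1, Smad3, Foxo3, Eed and Cbx7, a Polycomb protein known for repression of the Cdkn2a locus, also had both. Zbtb17, the gene of Miz-1, had neither within 5 kb, and the same held for Klf4, Rnf2, Smad4 and Sp3. Bmi1, another Polycomb repressor of Cdkn2a, had no peak within 1 kb and a Max peak within 5 kb. The 3 other genes with a Cdkn name (Cdkn3, Cdkn2aip and Cdkn2aipnl) had Max alone, with scores of 93.2, 397 and 748. Of the genes used as controls in the study, Suz12 and Ezh2 had both peaks, and H19 and Kdr neither. Suz12 and Ezh2 were the study's positive controls, chosen as Myc targets already described. They are also counted among the 9 of 22 controllers and the 22 of 51 genes with both peaks. The lists differ from the CDK inhibitors in their counts, and that difference was not tested. No CDK inhibitor had both peaks within 1 kb, so no gene with a like pair of scores could be named for it.

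**Figure D5:**
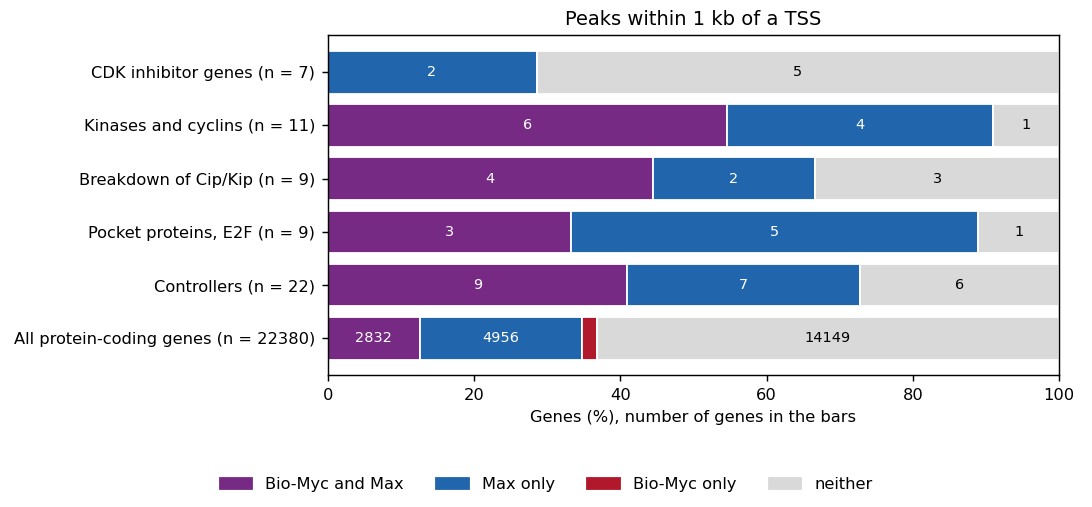
Share of genes (x axis, percent) with both peaks, Max alone, Bio-Myc alone or neither within 1 kb of a TSS, for the 7 CDK inhibitor genes, the 4 lists of genes that work with them and all 22380 protein-coding genes; numbers in the bars are genes. Both peaks are found at 0 of 7 CDK inhibitors, 6 of 11 kinases and cyclins, 4 of 9 breakdown genes, 3 of 9 pocket protein and E2F genes, 9 of 22 controllers and 12.7% of all protein-coding genes.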

How the data were processed

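Per the processing notes and methods, base calls came from CASAVA 1.8, and Bowtie 0.12.7 was used by the authors for alignment to mm9 (uniquely mapped reads, no more than 2 mismatches). The authors then removed redundant reads and ran MACS 1.4.1 against the mock or IgG ChIP at 1e-08. The deposited lists hold positions and a score per peak, relative to that control. Unique alignment leaves repeats without peaks, and the number of peaks depends on a depth that is unknown. Positions were converted to 1-based coordinates and compared with GENCODE M1 on the same assembly. A peak counted for a gene when at least 1 bp lay within 1 kb or 5 kb of any annotated TSS. Motifs were counted on both strands of mm9. The members and gene lists were chosen with earlier results of these data known. Named genes were the members, genes with a TSS under a peak within 5 kb of them, the study's controls, the other Cdkn names, and list genes with both peaks within 1 kb or neither within 5 kb. Bmi1 and genes at peaks beyond 5 kb were named after their values were seen. The counting of windows, distances and motifs was tested on simulated peaks, and 5 of 5 steps were exact. The tools were samtools 1.23.1, pysam 0.24.0, numpy 2.4.6 and matplotlib 3.10.9 under Python 3.11.15. For the mock and IgG ChIPs, no separate values were used here.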

Additional observations from a re-analysis of the deposited data

How the results depend on the processing

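The 29 alternatives planned for the counts with a Bio-Myc peak, both peaks or an E-Box under a Bio-Myc peak all lie inside the 5-kb window that holds no Bio-Myc peak, so they could only give 0 and say nothing of stability. The count of genes with a Max peak within 1 kb went from 2 to 1 with peaks at 1e-15 or lower, which removes Cdkn1a (score 134), and to 1 with the outermost TSS of each gene, since Max covered the second TSS of Cdkn1a. The Max peak with a CACGTG within 5 kb, 1 gene, became 0 in the 1-kb window, 3 with CACGTG or CACGCG and 3 with CANNTG. Windows of 10 kb and 20 kb were added after the data were seen: at 10 kb, 2 genes (Cdkn1b and Cdkn2c) had a Bio-Myc peak, 2 both and 5 a Max peak, and at 20 kb the counts were 3, 3 and 6. At 20 kb the Arf peak counts for both Cdkn2a and Cdkn2b. Shares over all genes were not computed for these windows. Of the protein-coding genes, 43.2% had a Max peak nearer than 10.6 kb and 46.8% nearer than 15.9 kb. For Bio-Myc, 19.8% had one nearer than 10.6 kb and 24.1% nearer than 18.7 kb. Of all 54 alternatives, 43 left the count the same, these 29 included. No paired analysis was possible because each ChIP is 1 library and no result comes from a test. Unknown depth limits every statement on a missing peak.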
